A study of Mus musculus with 4 samples.

Results

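Angptl4, Lpl and Lipa were followed in mouse bone marrow-derived macrophages kept with a high-fat medium from necrotic fat (Fat) or with its control medium (Con). These are 3 of the 17013 genes in the deposited values. They were taken by symbol as the secreted lipase inhibitor angiopoietin-like 4, its enzyme target lipoprotein lipase and the lysosomal acid lipase, and all 3 passed the filter on low values (0.5 CPM or more in 2 or more libraries), as did 12470 genes in all. They were chosen by their gene function and with their CPM in the Fat and Con libraries already known. Their levels are therefore given as a description, without a test.

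The macrophages came from wild-type (WT) male C57BL/6 mice, whose age is not given in the sources used here, and were grown from marrow with M-CSF. In both groups they sat on porous inserts and received artificial necrotic bone fluid (aNBF), a freeze-thaw extract of bone, and were kept so during 24 h. The well below held either the fat control medium (Con, middle layer of freeze-thawed abdominal fat) or the high-fat-containing medium (Fat, its top layer), with 2 libraries for each. The labels do not say that the 2 libraries of a group came from separate cultures or animals, so the p-values below cover no spread beyond these libraries. The variance behind them is partly borrowed from the other genes tested, as it is for the standard errors of the log2 differences.

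ANGPTL4 is a secreted protein that inactivates lipoprotein lipase, mainly by unfolding the enzyme, and thereby restrains the release of fatty acids from lipoprotein triglyceride. Its gene is a classical target of the PPAR nuclear receptors, which fatty acids activate, and is also induced by hypoxia. Lipoprotein lipase (LPL) is secreted and works at the cell surface and in capillaries, and macrophages are among the cells that make it. Lysosomal acid lipase, encoded by Lipa, cleaves triglycerides and cholesteryl esters that reach the lysosome by uptake, and is not a textbook target of ANGPTL4. Because ANGPTL4 acts on LPL protein, a transcript level does not measure lipase activity.

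The libraries held between 33573852 and 40785872 reads, recovered from the deposited CPM (reads scaled to a common library size). At an adjusted p-value under 0.05 by limma, 498 genes were called higher (3.99%) and 624 lower (5%) in Fat. All 8 macrophage markers (Adgre1, listed as Emr1, with Csf1r, Cd68, Itgam, Lyz2, Fcgr1, Mertk and Cd14) were detected in each library. Their summed level was between 33920 and 35960 CPM in Con and between 26920 and 28500 CPM in Fat. Most of that sum was Lyz2, at 28720 and 26819 CPM in Con and 21516 and 20347 CPM in Fat. Lyz2 was not called (log2 difference -0.41, limma adjusted p = 0.209). Of the 8, 2 were called lower, the Fc receptor gene Fcgr1 (log2 difference -0.88) and the efferocytosis receptor gene Mertk (-0.31). The 2 markers with a positive difference were Cd68 (0.09) and Itgam (0.07). In bulk RNA, fewer cells of a type and less RNA per cell cannot be told apart.

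In Con, Angptl4 was at 25.7 CPM in replicate 1 and 25.6 CPM in replicate 2. In Fat it was at 133.3 CPM in replicate 1 and 140.2 CPM in replicate 2. The Con libraries were almost equal, and both Fat libraries lay far above them. Such a lack of overlap was common, with 55.6% of the genes tested showing it in either direction. The means were 25.7 ± 0.0858 CPM (SD, n = 2) in Con and 136.7 ± 4.91 CPM (SD, n = 2) in Fat, a 5.33-fold difference. On the log2(CPM + 0.1) scale the difference, Fat minus Con, was 2.41 (standard error 0.06). The 4 ratios of a Fat to a Con library lay between 5.18 and 5.48. These levels rested on 872 and 960 reads in Con and 4974 and 5748 reads in Fat. The exact 95% Poisson interval was 24.0 to 27.5 CPM in Con replicate 1 and 129.6 to 137.0 CPM in Fat replicate 1, and it covers counting error only. The Con replicates differed by 0.472%, less than the interval's relative half-width of 6.70%, whereas the Fat replicates differed by 5.21%.

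**Figure D1:**
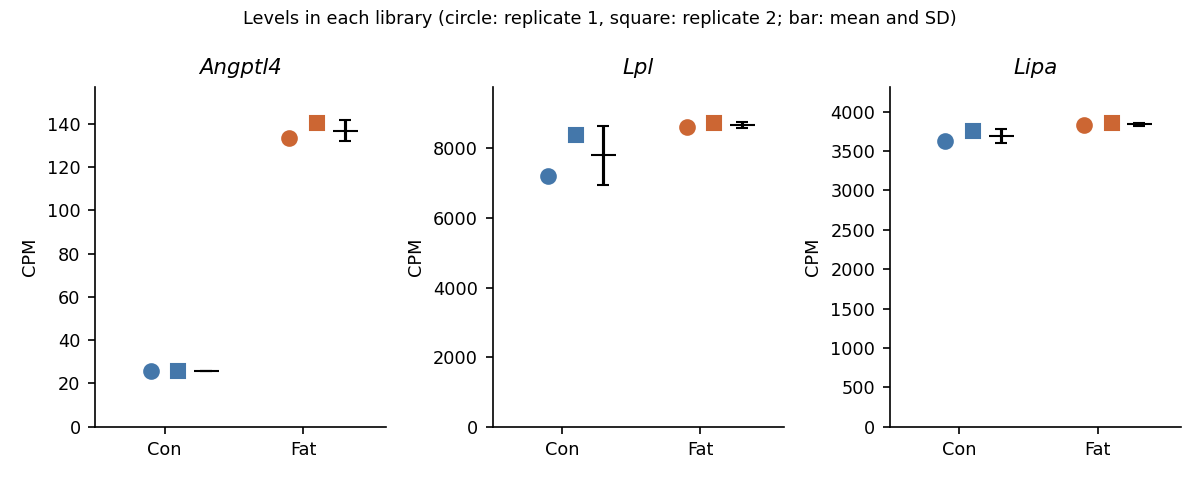
CPM of Angptl4, Lpl and Lipa in each library, with the vertical axis of each panel starting at 0. Points are single libraries (circle for replicate 1, square for replicate 2) and bars are the mean and SD of the 2 libraries of a group. Angptl4 was near 25.7 CPM in both Con libraries and above 133 CPM in both Fat libraries, while the highest library was 21.1% above the lowest for Lpl and 6.12% for Lipa.

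In Con, Lpl was at 7206 CPM in replicate 1 and 8391 CPM in replicate 2, and the Fat libraries were at 8611 (replicate 1) and 8727 CPM (replicate 2). Both Fat libraries were above both Con libraries, but the lower Fat library was only 2.62% above Con replicate 2. The Con replicates themselves differed by 16.4%. The means were 7799 ± 838 CPM (SD, n = 2) in Con and 8669 ± 82.1 CPM (SD, n = 2) in Fat, a difference of 870.6 CPM or 11.2%, which is about the size of the Con SD. The log2 difference was 0.16 (standard error 0.13). It was 0.05 without Con replicate 1 and 0.27 without Con replicate 2, so its size rested on the Con libraries. Counting error was not the limit, since each Lpl level rested on at least 244395 reads, with a 95% half-width of at most 0.397%.

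The Con libraries held Lipa at 3632 CPM (replicate 1) and 3758 CPM (replicate 2), and the Fat libraries at 3825 CPM (replicate 1) and 3854 CPM (replicate 2). As for Lpl, the groups did not overlap, and the lower Fat library was 1.80% above the higher Con library. The means were 3695 ± 89.2 CPM (SD, n = 2) in Con and 3840 ± 20.2 CPM (SD, n = 2) in Fat, a difference of 3.93%. Limma's standard error of the log2 difference was 0.09, a value partly borrowed from other genes and not the spread of Lipa alone. The log2 difference itself was 0.06, and 0.03 without Con replicate 1. With the deposited TPM values (scaled for gene length as well) it was 0.09, against a median of 0.04 over all genes tested on that scale and 0.01 with CPM. Of all genes tested, 29.4% had both Fat libraries above both Con libraries, so the same order in Lpl and Lipa is no result about them.

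Ordered from the highest to the lowest signed log2 difference, Fat minus Con, Angptl4 was 5th of 12470 genes, Lpl 2509th and Lipa 4914th, with the genes lower in Fat at the end of this order. The 4 genes above Angptl4 were Car3, Cidec, Pdk4 and Plin4. Car3 and the adipocyte lipid droplet genes Cidec and Plin4 had between 0 and 2 reads in each Con library, so their fitted values depend on the pseudocount. Car3, a carbonic anhydrase gene abundant in adipocytes, is named here because of its rank, after its values were seen. Pdk4, whose kinase restrains pyruvate dehydrogenase, had 47 and 72 reads in Con and 503 and 607 reads in Fat. Angptl4 thus had the highest Con level of the 5, at 25.7 CPM against 1.65 CPM for Pdk4.

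**Figure D2:**
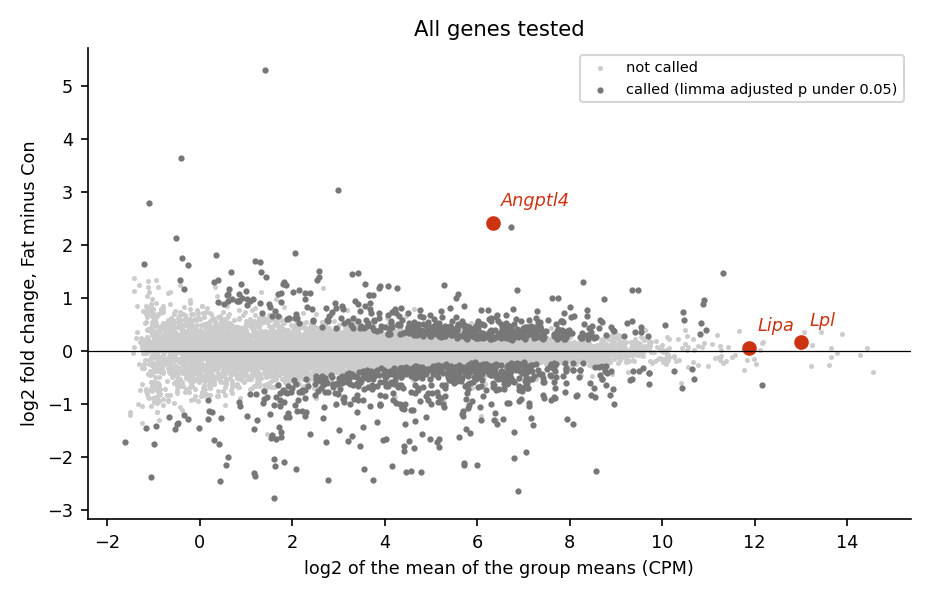
Difference between Fat and Con (log2 scale, vertical axis) against the mean level (log2 of CPM, horizontal axis) for the 12470 genes tested. Dark points are genes called by limma, and the 3 genes described are in red. Angptl4 stands among the largest positive differences at a middle level, and Lpl and Lipa stand among the most abundant genes close to 0.

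Levels of different genes were compared per length, in TPM. Lpl was at 4170 ± 390.9 TPM (SD, n = 2) in Con and 4743 ± 41.9 TPM in Fat, and ranked between 21st and 26th of the 17013 genes in each library. It took between 0.728% and 0.877% of all reads of a library. Lipa was at 2694 ± 27.9 TPM in Con and 2863 ± 13.2 TPM in Fat, ranking between 31st and 38th. Angptl4 was at 29.2 ± 0.50 TPM in Con and 159.2 ± 5.62 TPM in Fat, and its rank went from 4429th and 4447th in the Con libraries to 889th and 846th in the Fat libraries. The order Lpl, Lipa, Angptl4 held in every library, with gaps far above the replicate SD.

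Lpl transcripts exceeded Angptl4 transcripts 132 times in Con replicate 1 and 154 times in Con replicate 2, but 30.4 and 29.3 times in the same order in Fat (ratios of TPM). Expressed the other way, there were 0.759 and 0.649 Angptl4 transcripts per 100 Lpl transcripts in Con and 3.29 and 3.42 in Fat. The ratio of Lipa to Angptl4 was 90.5 and 94.1 in Con and 18.4 and 17.6 in Fat. Both ratios were lower in both Fat libraries than in either Con library. The ratio of Lpl to Lipa was 1.46 and 1.64 in Con and 1.65 and 1.66 in Fat, so that Con replicate 1 stood apart from the other 3 libraries.

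**Figure D3:**
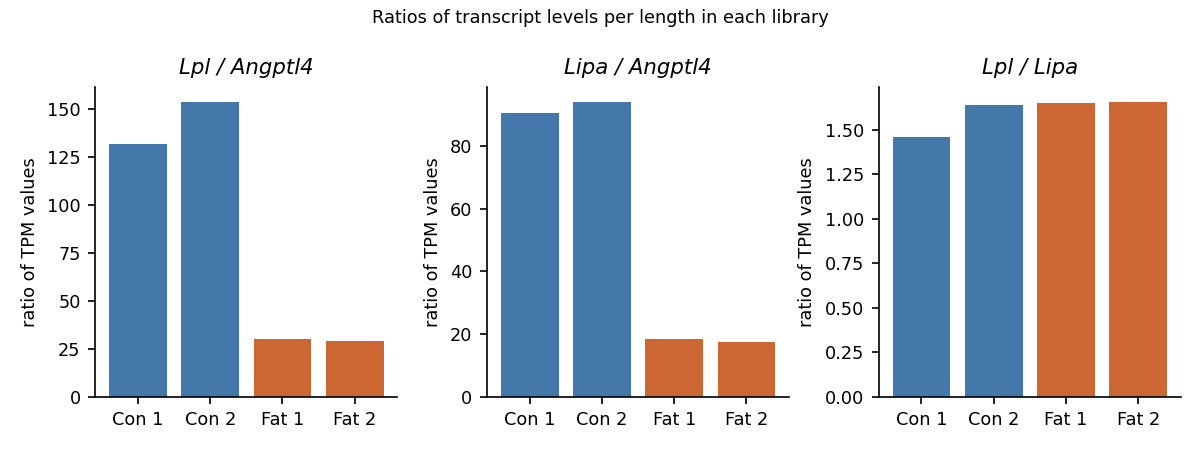
Ratios of TPM values in each library: Lpl to Angptl4, Lipa to Angptl4 and Lpl to Lipa, 1 bar per library with axes from 0 (blue, Con; orange, Fat). The first 2 ratios were 132 and 90.5 or more in Con and at most 30.4 and 18.4 in Fat, and the third stayed between 1.46 and 1.66.

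For each of the 3 genes, the genes with the most similar profile were found by the distance between log2(CPM + 0.1) values over the 4 libraries, each gene centred on its own mean. The nearest to Angptl4 was Hilpda (distance 0.177), followed by Ankrd37 (0.566), Plin4 (0.600), Pdk4 (0.706) and Ucp3 (0.722). Plin4 had 1 and 2 reads in the Con libraries and passed the filter only through the Fat libraries. Ucp3, with 19 and 17 reads in Con, also passed only with the Fat libraries. The places of both near Angptl4 therefore depend on the pseudocount. Hilpda encodes a small lipid droplet protein that inhibits adipose triglyceride lipase. It was at 32.7 and 37.4 CPM in Con and 177.9 and 174.4 CPM in Fat, a difference of 2.33 on the log2 scale (standard error 0.07). The 5 genes nearest to Lpl were Spata2, Tnfaip3, Cd109, Sec24d and Zscan20 (distances 0.0161 to 0.0236), and those nearest to Lipa were Clpx, Pip5k1b, Atic, 2310035C23Rik and Mrpl41 (0.00836 to 0.0121). Within a distance of 0.1 lay 0 genes for Angptl4, 338 for Lpl and 2182 for Lipa, so the profiles of both lipases were common ones. With 4 libraries, such likeness describes these libraries only.

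**Figure D4:**
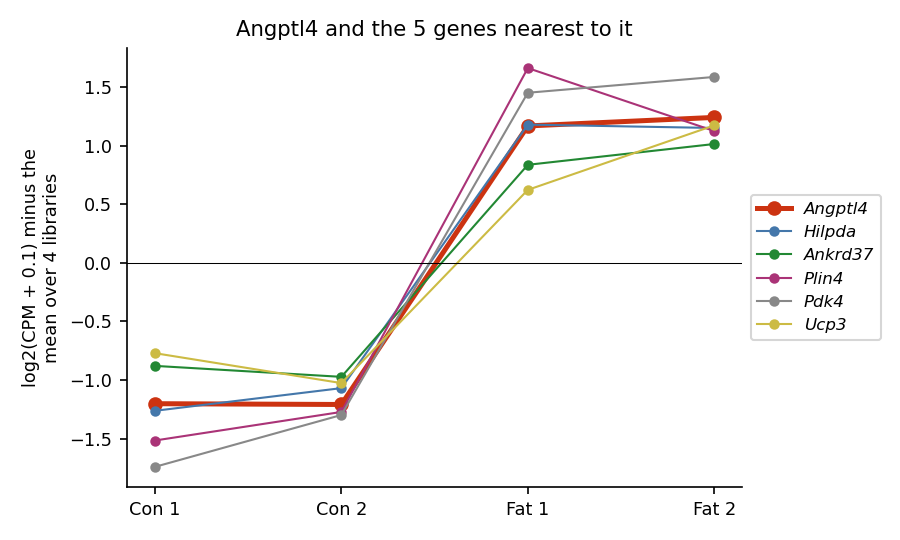
Profiles of Angptl4 and its 5 nearest genes over the 4 libraries, as log2(CPM + 0.1) minus each gene's mean (vertical axis). Lines join the points of a gene and imply no order of the replicates. Hilpda follows Angptl4 most closely, at a distance of 0.177, and the remaining genes lie at 0.566 or more. The Plin4 and Ucp3 profiles depend on the pseudocount, since Plin4 had 1 and 2 reads and Ucp3 19 and 17 reads in Con.

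Other genes around the 3 were described from lists written by hand, with earlier results of these data known, and their calls come from the limma fit over all 12470 genes, in which 9% of the genes (1122) were called in either direction. Of 9 other genes of the angiopoietin and angiopoietin-like families, 8 were found in the deposited values and 5 passed the filter. Angpt2, an antagonist ligand of the endothelial receptor TEK, was called higher, at 2.996 ± 0.400 CPM in Con and 4.65 ± 0.0169 CPM in Fat (log2 difference 0.62, standard error 0.15, limma adjusted p = 0.0437). That call was lost without Con replicate 1 (adjusted p = 0.173), Fat replicate 1 (0.102) or Fat replicate 2 (0.147), with the TPM values (0.0563) and with no filter (0.0799). Angpt1, which encodes the agonist ligand of the same receptor, was not called (0.26, adjusted p = 0.481). Angptl8 had between 0 and 2 reads per library, and Angpt4 between 1 and 3. The median log2 difference of the family was 0.26, against 0.01 over all genes tested.

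The genes for the maturation, cofactors and binding partners of LPL mostly stayed close to their Con levels. Of the 22 listed, 21 were found in the deposited values and 16 passed the filter. Of these, 2 were called higher and 14 were not called, with a median of 0.07. Sort1, which encodes the sorting receptor sortilin, was at 403.8 and 395.0 CPM in Con and 551.8 and 544.4 CPM in Fat (log2 difference 0.46, standard error 0.06, adjusted p = 0.00517). Sdc1, the gene of the heparan sulfate proteoglycan syndecan 1, to which LPL binds, was at 330.4 and 347.6 CPM in Con and 474.5 and 438.9 CPM in Fat (0.43, standard error 0.06, adjusted p = 0.00968). In both genes the groups stood well apart, and both kept their call with any library left out.

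Lmf1, whose product is needed for LPL to fold in the endoplasmic reticulum, was at 19.5 ± 0.967 CPM in Con and 18.2 ± 0.0553 CPM in Fat (log2 difference -0.10, adjusted p = 0.503). Its relative Lmf2 and the LPL quality control adaptor Sel1l had differences of 0.07 and 0.09. Apoc2, the gene of the LPL activator apolipoprotein C-II, was at 61.3 and 46.2 CPM in Con and 46.9 and 54.9 CPM in Fat, with overlapping groups (-0.07, adjusted p = 0.798). Apoe was at 7919 ± 21.5 CPM in Con and 8353 ± 1443 CPM in Fat, the Fat libraries lying on both sides of Con (0.07, adjusted p = 0.832). Among the proprotein convertases, which cleave ANGPTL4 and LPL, Furin (0.06) and Pcsk7 (-0.02) were not called, and Pcsk5 and Pcsk6 had at most 4 reads in any library. Gpihbp1, which anchors LPL on capillary endothelium, had 0, 3, 2 and 1 reads, at or under the limit of 3 reads used here, which is between 0.0732 and 0.0885 CPM. Sorl1, Sdc4, Hspg2, Lrp1, Vldlr and the LPL inhibitor gene Apoc1 had differences between -0.14 and 0.22, with adjusted p-values of 0.269 or more.

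Among other lipases and their regulators, 20 of 25 listed genes were found in the deposited values and 11 passed the filter. Of these, 3 were called higher and 1 lower, with a median of 0.10. Pnpla2, the gene of adipose triglyceride lipase, the first enzyme of lipid droplet breakdown, was at 130.0 and 139.7 CPM in Con and 183.5 and 192.3 CPM in Fat (log2 difference 0.48, standard error 0.06, adjusted p = 0.00561). Hilpda, the gene of its inhibitor described above, rose by 2.33 (adjusted p = 2e-05). Abhd12, a lysophosphatidylserine and monoglyceride hydrolase gene, rose by 0.30 (adjusted p = 0.0185), a call lost without Fat replicate 1 (0.0593) or Fat replicate 2 (0.0737).

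Lipn, a relative of Lipa in the acid lipase family, was called lower, at 5.72 and 7.86 CPM in Con and 3.30 and 2.39 CPM in Fat (log2 difference -1.23, standard error 0.21, adjusted p = 0.0148), with no overlap of the groups. Lipa itself, at 3632 CPM or more in every library, did not share this difference in size or direction. Lipe (hormone-sensitive lipase) was at 20.1 ± 0.0638 CPM in Con and 17.5 ± 1.62 CPM in Fat (-0.20, adjusted p = 0.211), and Mgll (monoglyceride lipase), Abhd6 and the coactivator gene Abhd5 were not called (0.11, 0.38 and 0.10). Lipc and Lipg, the hepatic and endothelial lipase genes closest to Lpl in family, stood under the filter, with between 5 and 15 reads in each library, as did the inhibitor gene G0s2 with between 10 and 20 reads. The carboxylesterase gene Ces1d had no read in Con and 3 and 5 reads in Fat.

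All 23 listed genes of lysosomal targeting and lipid handling around LIPA passed the filter, and 2 were called higher, 2 lower and 19 not at all. Their median was -0.01. Igf2r, the large mannose 6-phosphate receptor that delivers acid hydrolases such as LIPA, was at 192.4 and 200.3 CPM in Con and 233.3 and 230.4 CPM in Fat (log2 difference 0.24, adjusted p = 0.0342). Scarb2, the gene of the lysosomal membrane protein LIMP-2, was higher by 0.31 (adjusted p = 0.0255). Abca1 (-0.31, adjusted p = 0.0385) and Abcg1 (-0.34, adjusted p = 0.0371), the cholesterol efflux transporter genes, were lower. Each of these calls was lost when 1 or another library was left out, and without Fat replicate 1 or Fat replicate 2 only 1 gene of the list was called.

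The other steps next to LIPA were not called. M6pr, Gnptab, Gnptg and Nagpa, which make or read the mannose 6-phosphate tag, had log2 differences between -0.13 and 0.12. Npc1 and Npc2, which pass on the cholesterol that LIPA frees, were at 0.19 and -0.30 (adjusted p = 0.0765 and 0.0760), with no overlap of the groups in either. Soat1, which re-esterifies cholesterol, and Nceh1, which hydrolyses cholesteryl esters outside the lysosome, were at 0.16 and 0.22 (adjusted p = 0.153 and 0.0599). Pla2g15, the lysosomal phospholipase gene, was at 0.02. Tfeb (0.05) and Tfe3 (-0.01), transcription factors of lysosomal genes, were close to 0, and Mitf was at -0.21 (adjusted p = 0.0799).

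Genes known to respond to PPARs or to hypoxia were counted because both routes are known for Angptl4. The filter left 20 PPAR-responsive genes, of which limma called 10 higher and 1 lower, with a median of 0.28. Of the 10, Ucp3 had 19 and 17 reads in Con and passed the filter only with the Fat libraries. Its difference was 0.999 with a pseudocount of 1 CPM and 2.01 by edgeR. Of the 20 genes, 17 had a positive difference. Acsl1 (-0.43, adjusted p = 0.0692) and Fabp4 (-0.16, adjusted p = 0.174) were lower without a call. The largest rises were those of Pdk4 (log2 difference 3.04, adjusted p = 0.000541), the mitochondrial carrier gene Ucp3 (1.80, adjusted p = 0.0104), the lipid droplet coat gene Plin2 (1.47, adjusted p = 0.000541), Ucp2 (0.72, adjusted p = 0.00514), and the fatty acid import genes Cpt1a (0.63, adjusted p = 0.00316) and Slc25a20 (0.63, adjusted p = 0.00297). Fabp5, a fatty acid binding protein gene and the 1 member called lower, was at 1384 ± 49.1 CPM in Con and 1056 ± 15.1 CPM in Fat (-0.39, adjusted p = 0.0166, and 0.0769 without Fat replicate 2). Of 15 hypoxia-responsive genes, 13 were called higher and 2 (Car9 and Ndrg1) were not called, with a median of 0.42. After Hilpda, the largest rises were those of Ankrd37 (1.85, adjusted p = 0.0025), the oxygen sensor gene Egln3 (1.30, adjusted p = 0.00726), Adm (0.97, adjusted p = 0.0244), the glucose transporter gene Slc2a1 (0.83, adjusted p = 0.00286) and Vegfa (0.76, adjusted p = 0.00311). The call of Adm was lost without Con replicate 2 (adjusted p = 0.0559) or Fat replicate 2 (0.127). The lists were chosen with these libraries' results in view, so their counts are no independent evidence of either route.

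Among the receptors and factors themselves, 1 of the 8 that passed the filter was called. Pparg was at 32.8 and 37.7 CPM in Con and 22.9 and 20.9 CPM in Fat (log2 difference -0.68, standard error 0.09, adjusted p = 0.00639). Ppard was at 36.1 and 38.6 CPM in Con and 42.4 and 41.3 CPM in Fat (0.16, adjusted p = 0.175), and Ppara had between 1 and 3 reads per library. Hif1a, whose protein is regulated mainly by its stability, was at 197.9 ± 31.4 CPM in Con and 191.2 ± 3.13 CPM in Fat (-0.04, adjusted p = 0.849). Rxra, Rxrb, Nr1h2, Nr1h3 and Nr3c1 had differences between -0.08 and 0.12.

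When limma was run with no trend of the variance on the mean, it called 31 genes in all. The lists kept 2 PPAR-responsive genes, 2 hypoxia-responsive genes and 1 lipase regulator. That regulator was Hilpda, which is also in the hypoxia-responsive list and is counted in both. By edgeR on the recovered reads, the count of calls in each list was the same as by limma.

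**Figure D5:**
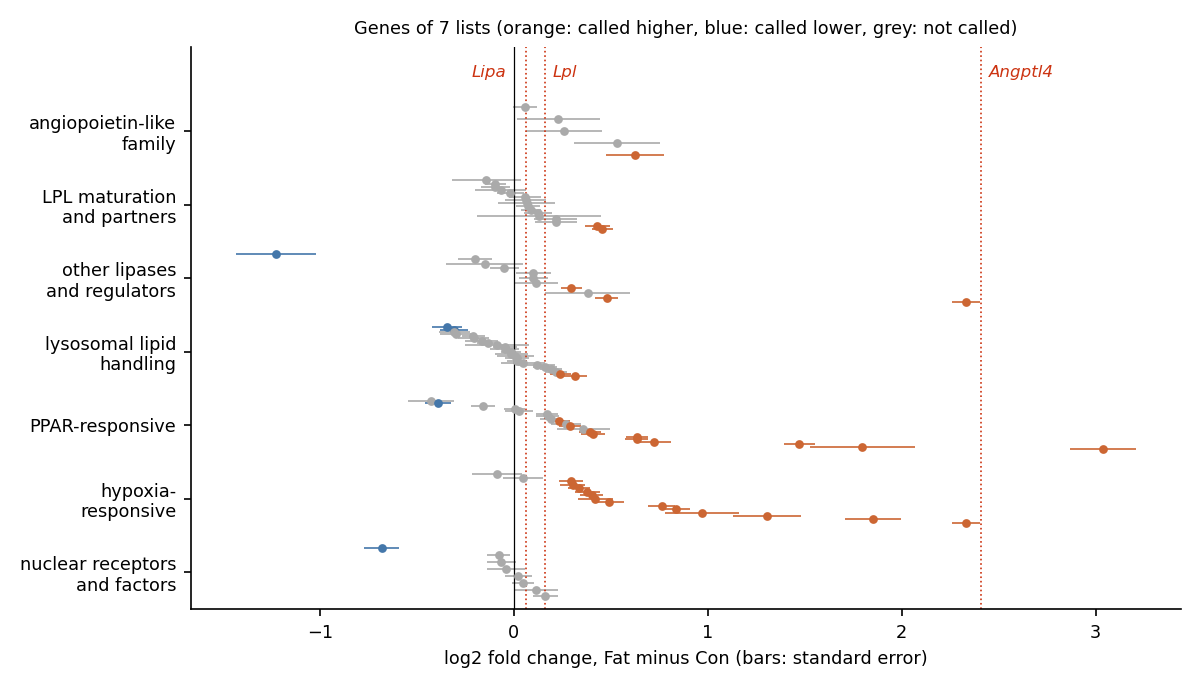
Log2 difference between Fat and Con, with standard errors, for the genes of 7 hand-written lists that passed the filter. Orange points were called higher and blue points lower by limma, grey points were not called, and dotted red lines mark Angptl4 (2.41), Lpl (0.16) and Lipa (0.06). The hypoxia-responsive and PPAR-responsive genes lie mostly to the right of 0, with 13 of 15 and 10 of 20 called higher, and the lists around LPL and LIPA lie close to 0.

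Adipocytes also express Angptl4 and Lpl, and the reads of adipocyte marker genes moved with the groups. Of 12 adipocyte markers, 11 (all but Slc36a2, set aside after its 306 to 427 reads in every library were seen) had together 6 reads in Con replicate 1 and 8 in Con replicate 2, against 215 reads in Fat replicate 1 and 147 in Fat replicate 2. With Slc36a2 the list summed to between 9.20 and 10.4 CPM in Con and between 14.0 and 15.6 CPM in Fat. Adipoq, the defining adipocyte gene, was at 0 reads in both Con libraries and at 28 and 14 reads in the Fat libraries. Over the same libraries Angptl4 went from 872 and 960 to 4974 and 5748 reads. Lep, Pck1, Cidea, Adrb3 and Lgals12 were also at 0 in both Con libraries. The lipid droplet genes Cidec (67 and 47 reads in Fat) and Plin4 (40 and 29 reads in Fat) held a large part of the marker reads. Whether the marker reads came from adipocytes or from macrophages was not tested. The part of adipocyte RNA in the Angptl4, Lpl and Lipa levels was not tested either.

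The cultures could also hold other cell types. The stromal list (Col1a1, Col3a1, Pdgfra, Lum, Dcn) summed to 299.6 and 316.6 CPM in Con and 257.6 and 345.2 CPM in Fat, with Dcn called lower (log2 difference -0.82, adjusted p = 0.0358). The 4 of 5 listed neutrophil genes (S100a8, S100a9, Mpo, Elane) summed to between 248.1 and 282.7 CPM in Con and between 244.2 and 249.6 CPM in Fat. The endothelial list (Cdh5, Pecam1, Kdr, Tek, Emcn) summed to 4.67 to 6.55 CPM in Con and 6.89 to 7.59 CPM in Fat. In the neutrophil and endothelial lists no gene was called by limma or edgeR, and at an unadjusted limma p-value under 0.05 there were 1 and 0 genes. Their part in the levels of the 3 genes was not tested.

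In the GENCODE vM21 transcripts, no other gene overlapped the exons of Angptl4, Lpl or Lipa. Stretches of at least 75 bases at 97% identity were shared with other genes by 5.69% of the longest Lpl transcript (with transcripts of 60 genes) and by 0% of the longest Angptl4 and Lipa transcripts. These transcripts belong to GRCm38 and not to the build named for the data, and the number of reads on the shared stretches was not measured.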

How the data were processed

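The 4 libraries (2 Con, 2 Fat) were grouped by the titles in their labels. The authors sequenced single reads of 75 bases from a stranded mRNA kit. The submitters' processing notes name GRCm39. The aligner, annotation and counting strand are not given in the sources used here, and no coordinates are printed. The authors deposited CPM values, in which reads were scaled by the library total and edgeR's TMM factor, and TPM values, which are also scaled for gene length. Dividing a library's CPM by its smallest step gave back the reads (100% of values within 0.01 of a whole number).

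Fat and Con were compared on log2(CPM + 0.1) by limma 3.58.1 (R 4.3.3), two-sided, with the variance trended on the mean. Empirical Bayes moderation drew each gene's variance toward that trend, and the standard errors given use the moderated variance. Adjustment (Benjamini-Hochberg) covered the 12470 genes that reached 0.5 CPM in 2 or more libraries. All p-values in the text are adjusted limma values unless named otherwise. Differences of low genes are understated on this scale. With 2 libraries against 2, an exact permutation test of a single gene cannot go below p = 0.333. edgeR 4.0.16 (quasi-likelihood test) on the recovered reads was an alternative. In a simulation with 200 of 12470 genes changed by 1 on the log2 scale, limma found 93.5% with 15 false calls. The simulation gave every gene the same dispersion. Its figures need not hold for the spread of these libraries or for smaller differences. Shared sequence was searched with BLAST 2.17.0. Figures used Python 3.11.15 and matplotlib 3.10.9.

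The members, the gene lists and the tests were chosen with earlier results of these data known. Genes named were Angptl4, Lpl, Lipa, list members with a written role, up to 6 further called members per list with the largest change, the receptors, the markers and the 5 nearest genes. Car3, Car9, Ndrg1, Fabp5, Fabp4 and Acsl1 were named after their values were seen. Of the listed genes, Adgre1 and Angptl8 were found under the older symbols Emr1 and Gm6484. Apoc3, Ces1f, Angptl1, Lipi, Pnlip, Pnliprp1, Lipf and Ly6g were not found among the deposited genes under the symbols searched, so they were not analysed. Some listed genes and 1 marker list are not reported here. Alternatives were another pseudocount, filters, TPM, median ratio rescaling, the replicate number as a block, no trend, edgeR and each library left out.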

Additional observations from a re-analysis of the deposited data

How the results depend on the processing

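Angptl4 stayed between 2.37 and 2.45 on the log2 scale with each library left out, and was 2.37 with a pseudocount of 1 CPM. Lpl lay between 0.05 and 0.27 and Lipa between 0.03 and 0.08 with each library left out, and Lipa was 0.088 with TPM. The count of all called genes (1122) was 2520 with the replicate number as a block and 31 without the mean-variance trend, and lay between 529 (without Fat replicate 2) and 1131 with each library left out (666 without Con replicate 1). Deviations of libraries with the same number had a correlation of 0.20 over the 12470 genes, but the labels give the pairs only a number. With the replicate block the lysosomal list had 9 calls in place of 4, and no named call was lost. Without the trend the calls were 2 for PPAR-responsive and 2 for hypoxia-responsive genes, 1 for other lipases, and 0 for the LPL, lysosomal, angiopoietin-like and receptor lists. Hilpda is counted in both the hypoxia-responsive and the other lipases lists. The 1 call of the angiopoietin-like list was 0 with no filter, with a mean of at least 5 CPM and with TPM.

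With each library left out, the calls ranged from 0 to 1 (angiopoietin-like), 2 to 3 (LPL), 3 to 5 (other lipases), 1 to 3 (lysosomal), 9 to 11 (PPAR) and 9 to 12 (hypoxia). Of 35 called genes in the lists, 22 were called in all 4 of these fits, and 0 changed direction in any alternative. Without the trend, 31 of the 35 were no longer called. The causes of these shifts were not tested. Uncalled genes changed sign as follows with each library left out, on the log2 scale. Apoc2 lay between -0.27 and 0.13, Apoc1 between -0.14 and 0.39, Apoe between -0.11 and 0.24, Furin between -0.036 and 0.15, Pcsk7 between -0.080 and 0.041, Hspg2 between -0.10 and 0.22, and Mgll between -0.079 and 0.30. M6pr lay between -0.11 and 0.013, Nagpa between -0.13 and 0.039, Pla2g15 between -0.0067 and 0.041, Tfeb between -0.14 and 0.23, Rxrb between -0.044 and 0.090, Nr1h2 between -0.049 and 0.28, and Hif1a between -0.20 and 0.12. With TPM, Pcsk7 was 0.012 and Tfe3 was 0.018. With 2 libraries a group, the spread between libraries and not read depth limits Lpl and Lipa.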
